A study of Mus musculus with 8 samples.

Results

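The genes described here are 33 genes of the endoplasmic reticulum (ER): chaperones, the sensors of the unfolded protein response, the degradation machinery, the translocon and 2 subunits of the COPII coat. They were taken by name from a fixed list; the rule reads no measured value, but the list was drawn up with earlier results of these data known. Gene identifiers in the count tables were given symbols from GENCODE mouse release M21. All 33 matched exactly 1 of the 47069 gene entries, and all 33 passed the filter on low counts that left 14263 genes for testing. The RNA came from mouse leukaemia cells with MLL-AF9, a fusion oncogene of acute myeloid leukaemia, together with a Klf4 transgene that doxycycline switches on (TetO-Klf4-AML in the labels). GFP-positive cells were sorted from mice with leukaemia, and the labels give bone marrow as the tissue and C57BL/7 as the strain. There were 4 groups, 0h, 6h, 12h and 24h, with 2 libraries each, and every group carried both MLL-AF9 and the Klf4 transgene. What the hours are counted from is not in the labels, and neither is whether replicate libraries are different mice. The p-values therefore rest on the spread between 2 libraries per time, which may be technical. That spread was pooled over the 4 times and drawn towards that of the other genes. Doxycycline without the transgene was not analysed here, so time, doxycycline and Klf4 cannot be told apart.

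Secreted and membrane proteins enter the ER through the SEC61 translocon and are folded there by BiP, GRP94, the lectin chaperones calreticulin and calnexin, and the protein disulfide isomerases. Proteins that fail to fold are passed back to the cytosol and degraded, a route called ER-associated degradation, while folded ones leave in COPII vesicles. Unfolded protein in the lumen is sensed by IRE1, ATF6 and PERK: IRE1 splices the Xbp1 message, XBP1 and ATF6 induce chaperone and degradation genes, and PERK acts through translation and ATF4.

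Libraries held between 20394546 and 26041347 gene counts, and replicates differed by more than counting noise at each time (chi-square over degrees of freedom, 1.83 to 3.79). Klf4, the induced gene, stood at 2.71 and 4.42 CPM (counts per 1000000 library counts, scaled by TMM) in the 2 libraries at 0h, 152 and 151 (6h), 114 and 111 (12h) and 76.8 and 78.7 (24h). The 0h libraries therefore had low but countable Klf4, and transgene and endogenous Klf4 are not separated. All 10 marker genes of leukaemic myeloid progenitors were detected, with a summed level of 1974 to 1995 CPM at 0h and 1849 to 1866 at 24h. Their members did not move alike: Cd34, a marker of immature cells, went from 242 and 244 CPM at 0h to 115 and 117 at 24h, while the myeloid integrin gene Itgam went from 51.9 and 46.9 to 59.6 and 67.5 (both picked after their values were seen). The part of these markers in the ER results was not tested.

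The ER genes as a set were lower after 0h. Of the 33, 22 fell and 1 rose at 6h, 26 fell and 4 rose at 12h, and 25 fell and 4 rose at 24h, each against 0h (edgeR's quasi-likelihood test, Benjamini-Hochberg adjusted p under 0.05 over all genes). Among all genes tested, 18.3% were called at 6h, 43.7% at 12h and 50.9% at 24h: 8.58%, 21.6% and 24.8% lower and 9.74%, 22.1% and 26.1% higher. The median log2 fold change of the 33 was -0.19 at 6h, -0.24 at 12h and -0.32 at 24h, beside a median over all genes of -0.00, 0.00 and 0.02. The changes were modest in size: Calr, with the lowest fold change at 24h, fell by 44.0%. The balance of calls over all genes depended on the scaling: at 6h, 12h and 24h 53.2%, 50.6% and 51.3% of them were higher, 69.9%, 65.3% and 62.7% without TMM, and 18.5%, 22.5% and 25.4% with a correction for GC and length that also centres the mean gene. That correction placed the median of all genes at -0.09, -0.16 and -0.16 and that of the 33 at -0.25, -0.32 and -0.45, so the 33 stayed below it. The 3 comparisons share the 0h libraries, so their values are given side by side and not as repeats of one another. In bulk RNA, fewer cells with a gene on and less RNA per cell cannot be told apart.

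**Figure D1:**
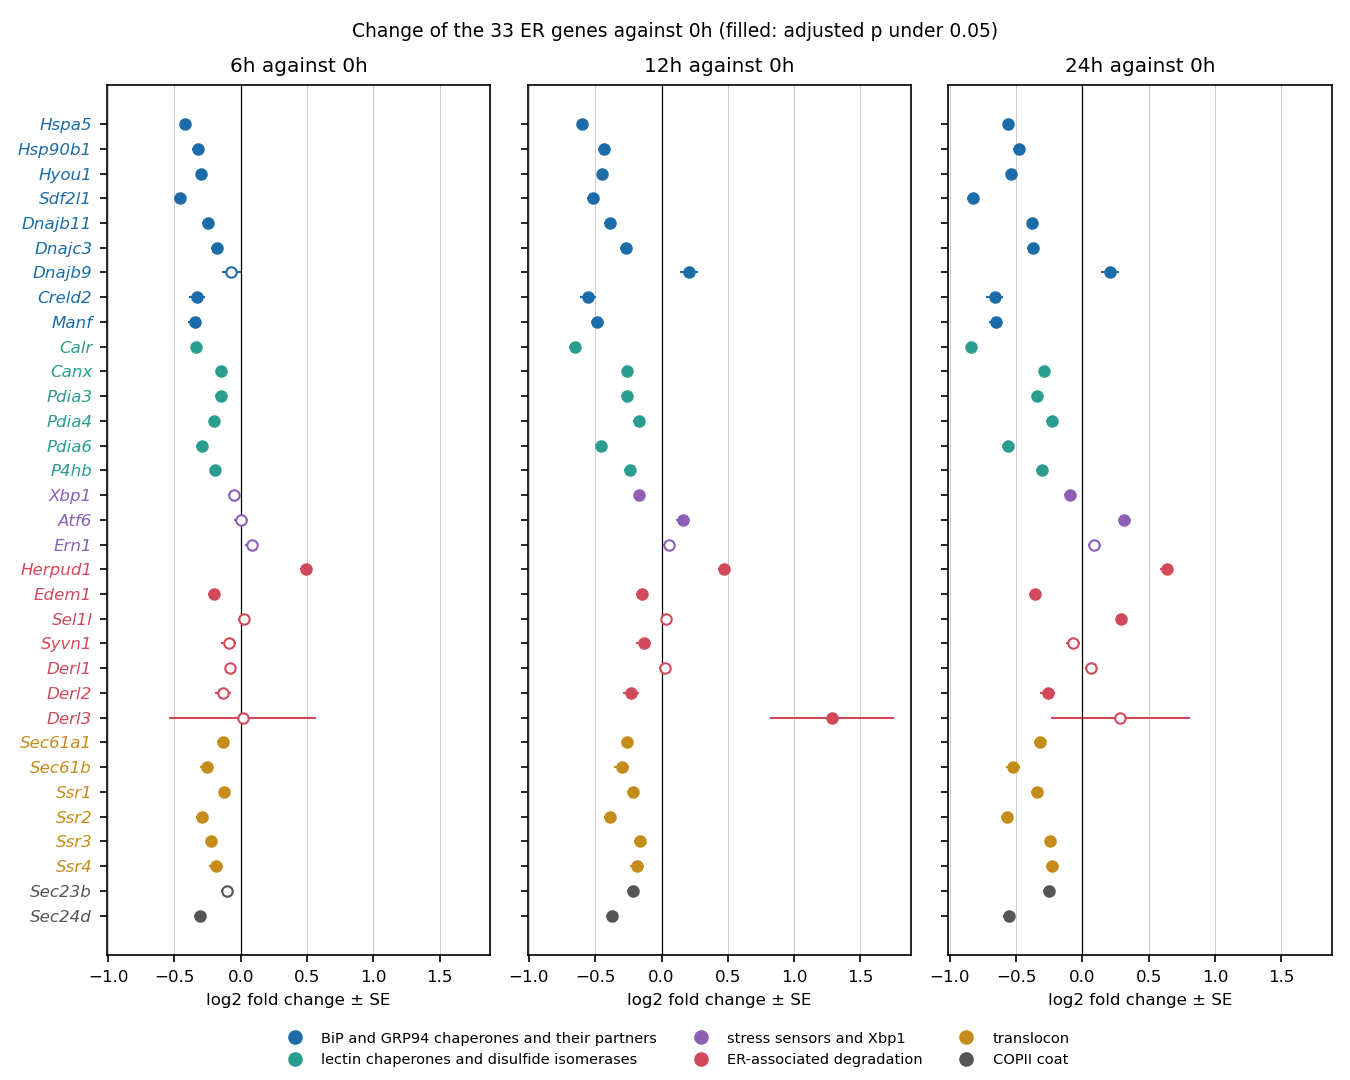
Log2 fold change of each of the 33 ER genes at 6h, 12h and 24h against 0h, on 1 shared x axis, with bars of 1 SE and the 2 libraries of each time in the fit. Filled points passed the test at an adjusted p under 0.05. Most points lie left of 0, while Herpud1 lies right of it at all 3 times; Derl3, with 4 to 26 counts per library, has the widest bars.

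Both libraries of the later time lay below both 0h libraries for 28 of the 33 genes at 6h and for 26 at 12h and 24h, beside 29%, 35.3% and 36% of all genes tested. Both lay above for 1, 6 and 6 genes, beside 27.3%, 35.9% and 38.9%. An F test over the whole course called 31 of the 33, beside 52.8% of all genes, and left out Ern1 (adjusted p = 0.32) and Syvn1 (adjusted p = 0.17). Under every other processing setting and with each library left out in turn, 24 of the 25 falls and 3 of the 4 rises at 24h passed again, against 19 of 26 and 1 of 4 at 12h and 15 of 22 and 1 of 1 at 6h.

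**Figure D2:**
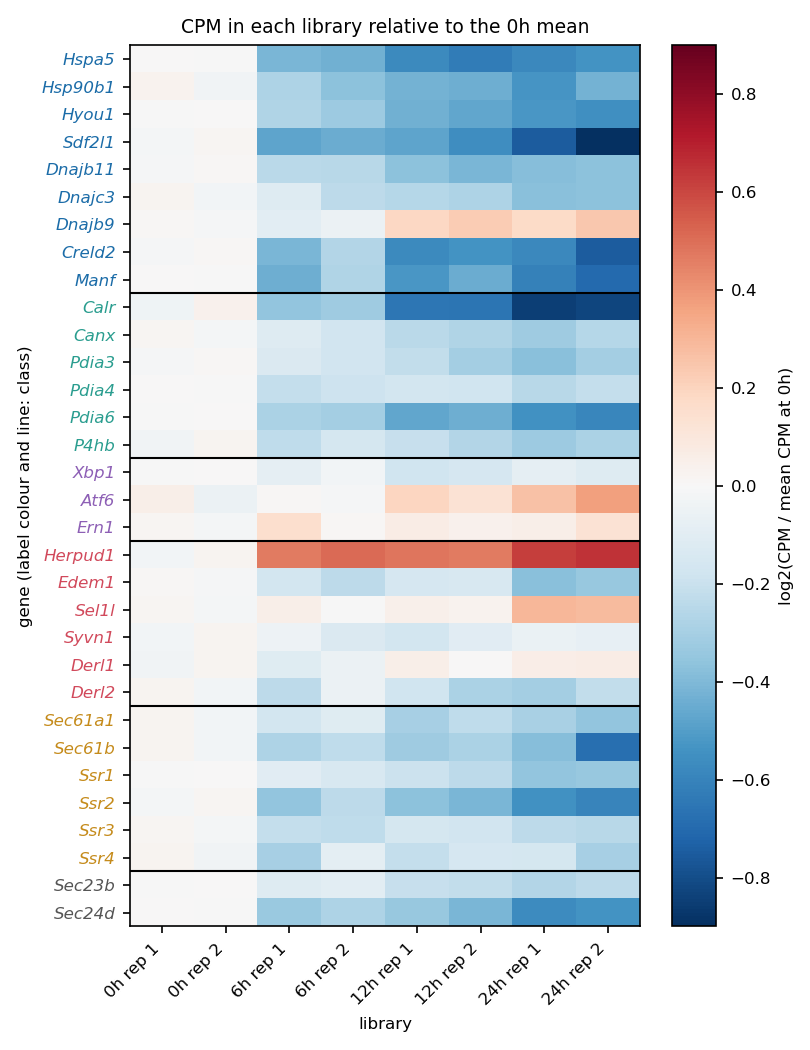
Level of each ER gene in each of the 8 libraries as log2 of its CPM over the 0h mean, with black lines between the classes; blue is below and red above the 0h mean. Derl3 is not drawn because of its 4 to 26 counts per library. The chaperone, isomerase and translocon genes are blue in both libraries of 6h, 12h and 24h apart from Dnajb9, and Herpud1 is red in all 6.

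Summed over their members, the classes did not move alike. The 9 genes of BiP, GRP94 and their partners came to 3649 ± 24.5 CPM at 0h (SD, n = 2), 2860 ± 40.7 at 6h, 2597 ± 42.6 at 12h and 2527 ± 27.9 at 24h, which was 30.7% below 0h. Lectin chaperones and disulfide isomerases, 6 genes, came to 7801 ± 170 CPM at 0h and 5361 ± 93.9 at 24h, 31.3% below. For the 6 translocon genes the sum went from 2452 ± 22.2 to 1918 ± 54.7 CPM, 21.8% below, and for the 2 COPII genes from 282 ± 0.706 to 215 ± 3.03 CPM, 23.5% below. In contrast, the 7 degradation genes summed to 1022 ± 0.856 CPM at 0h and 1042 ± 8.61 at 24h, and Xbp1, Atf6 and Ern1 to 569 ± 6.57 and 576 ± 5.20 CPM. In the first 4 classes both 24h libraries lay below both 0h libraries, and in the last 2 the mean at 24h was 102% and 101% of that at 0h. These sums are descriptions, and the difference between classes was not tested. They lean on the most abundant genes: Calr made 37.4% of the difference in the sum of all 33 between 0h and 24h, Hspa5 11.2% and P4hb 7.79%. Without Calr the sum was 21.1% below 0h at 24h, against 26.2% with it.

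**Figure D3:**
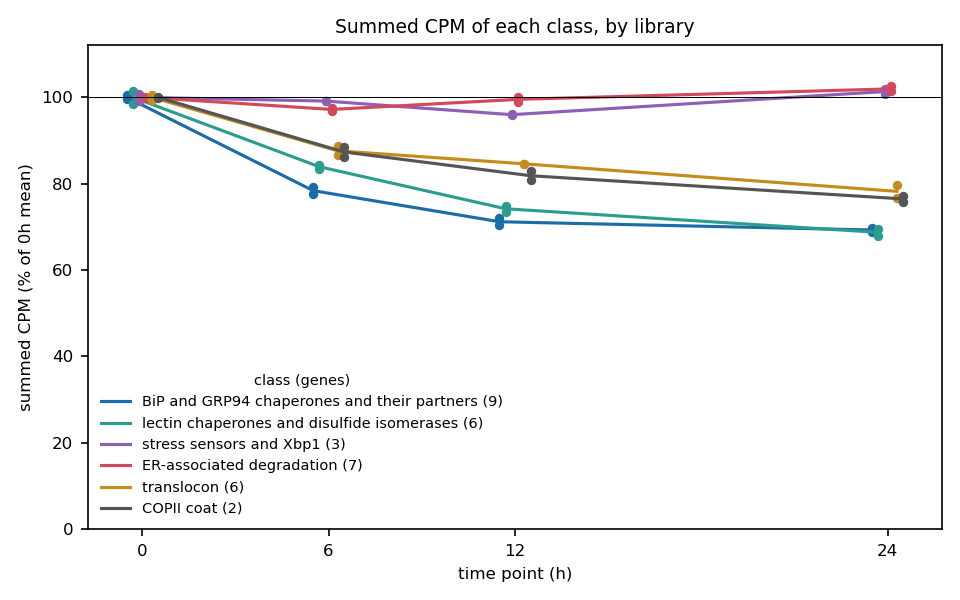
Summed CPM of the members of each class at 0h, 6h, 12h and 24h, as a percent of the 0h mean; points are the 2 libraries of each time and lines join their means, shifted slightly sideways by class. The chaperone, isomerase, translocon and COPII sums end between 69% and 78% of 0h, and the degradation and sensor sums end at 102% and 101%.

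Promoter elements were read next, and the choice of genes did not use promoter sequence. The genes were listed for roles in ER folding and stress, so a high share with ER stress elements may follow from that choice. That share was not tested. RefSeq promoter windows (build GRCm38.p6, 250 bases before to 50 after the gene start) were found for 27 of the 33 genes and searched on both strands. The ER stress response element, CCAAT and CCACG separated by any 9 bases, was in 9 of the 27 (33.3%), against 0.137% of all 27025 genes and 0.119% of all 32851 windows. Its relative ERSE-II, ATTGG and CCACG separated by 1 base, was in 2 of the 27 (7.41%), Dnajb11 and Herpud1, against 0.0444% of all genes. Stretches just before the gene start are printed 5′ to 3′ on the gene's own strand. They cover members that fell (Hsp90b1, Creld2, Calr, Canx, Pdia6), one that rose (Herpud1) and one called at 12h alone (Syvn1). Herpud1 has an ERSE-II and no ERSE. Dnajb11, the other member with an ERSE-II, fell and is not printed, as its element lies after the gene start. Capitals mark the matched ends of each element, and CGTGG with ATTGG is the same ERSE read from the other strand.
Hsp90b1: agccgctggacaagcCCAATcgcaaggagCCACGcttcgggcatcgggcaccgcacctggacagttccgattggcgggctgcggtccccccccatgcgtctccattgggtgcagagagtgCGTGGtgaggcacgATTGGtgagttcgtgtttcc
Creld2: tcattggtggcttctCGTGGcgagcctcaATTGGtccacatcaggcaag
Calr: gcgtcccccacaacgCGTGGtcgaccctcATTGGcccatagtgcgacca
Canx: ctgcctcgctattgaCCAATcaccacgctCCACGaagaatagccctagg
Pdia6: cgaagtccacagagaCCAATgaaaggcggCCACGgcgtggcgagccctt
Syvn1: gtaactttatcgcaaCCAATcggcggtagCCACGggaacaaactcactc
Herpud1: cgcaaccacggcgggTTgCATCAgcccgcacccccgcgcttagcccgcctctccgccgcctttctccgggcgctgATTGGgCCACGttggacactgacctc
These stretches lie at chr10:86705518-86705671 (minus strand, 2 elements in opposite directions), chr15:88819505-88819553 (plus), chr8:84847060-84847108 (minus), chr11:50325785-50325833 (minus), chr12:17266476-17266524 (plus), chr19:6046517-6046565 (plus) and chr8:94386302-94386402 (plus). The other members with an ERSE were Hspa5 and Dnajc3, which fell, and Derl3, which was called higher at 12h alone. In Herpud1 the first capitals are an ATF4 element (TGATGNAA, here on the opposite strand) and the second the ERSE-II. The XBP1-type element TGACGTGG was in Sec24d only (3.7% of the 27, against 0.714% of all genes), the ATF4 element in Herpud1 only (3.7% against 4.51%), and the KLF motif GGGTGTGG in none of the 27 (4.09% of all genes). A match of letters is a description and shows neither binding nor a cause, binding of any factor was not measured here, and the lack of a match says only that these letters are not in the window.

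Genes with and without the element both mostly fell. Of the 11 members with an ERSE or ERSE-II, 8 fell and 1 rose at 24h, with a median log2 fold change of -0.38. Of the 16 without either, 13 fell and 2 rose, with a median of -0.26. Outside the 33, 14 other tested genes had one of the elements, and of these 4 fell, 5 rose and 5 were not called at 24h (median -0.10), beside 24.8% lower and 26.1% higher over all genes. The difference between these groups of genes was not tested.

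BiP and its partners had the lowest class median at 6h (-0.32), and 8 of the 9 fell at each of the 3 times, although at 6h the call of Dnajc3 was lost under a correction for GC and length and without 0h replicate 1 or 6h replicate 2 (adjusted p up to 0.073). The shares called lower over all genes were 8.58% at 6h, 21.6% at 12h and 24.8% at 24h. Hspa5 encodes BiP, the main Hsp70 chaperone of the ER lumen and the usual marker of the unfolded protein response (chromosome 2, 34771970 to 34777547, build mm10). It stood at 1451 and 1446 CPM at 0h, 1092 and 1076 (6h), 974 and 938 (12h) and 969 and 999.8 (24h). The later libraries were all lower than both at 0h, and 12h and 24h overlapped. It fell by 0.42 ± 0.04 on the log2 scale (SE) at 6h, by 0.60 ± 0.04 at 12h and by 0.56 ± 0.04 at 24h, with adjusted p = 2.4e-10, 6.6e-15 and 2.8e-14. Hsp90b1, which encodes GRP94, the Hsp90 of the ER, stood at 761 and 726 CPM at 0h, 612 and 576 (6h), 554 and 547 (12h) and 515 and 554 (24h). Its groups did not overlap with 0h, and it fell by 0.48 ± 0.04 at 24h (adjusted p = 1.3e-11). Other genes overlap 15.7% of the exonic length of Hsp90b1, so part of its counting is uncertain.

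Among the partners, Sdf2l1, a component of BiP co-chaperone complexes, fell most at 6h and 24h, and Creld2 at 12h (by 0.56 ± 0.06, against 0.52 ± 0.05 for Sdf2l1). Sdf2l1 stood at 229.8 and 235 CPM at 0h, 168 and 171 (6h), 167 and 158 (12h) and 139 and 124 (24h). Its 24h libraries lay below all others. It fell by 0.46 ± 0.05 at 6h and by 0.82 ± 0.05 at 24h (adjusted p = 8.5e-10 and 3.1e-17). Manf, an ER protein that is also secreted, stood at 194 and 194 CPM at 0h and 128 and 119 at 24h, and fell by 0.65 ± 0.05 (adjusted p = 6.9e-14), although genes on either strand overlap 9.25% of its exons. Creld2, another stress-inducible ER protein, went from 63.8 and 64.6 CPM to 42.9 and 38.3 and fell by 0.66 ± 0.06 (adjusted p = 2.7e-11). In all 3 of these genes both 24h libraries lay well below both 0h libraries. Hyou1, the exchange factor that resets BiP, had 519.9 and 521 CPM at 0h and 362 and 355 at 24h and fell by 0.54 ± 0.04 (adjusted p = 8.2e-14).

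The J-domain co-chaperones, which stimulate the ATPase of BiP, divided. Dnajb11 fell by 0.38 ± 0.04 at 24h, from 216 and 219.9 CPM to 167 and 168, and Dnajc3 by 0.37 ± 0.04, from 200.2 and 194 CPM to 152 and 153 (adjusted p = 1.2e-09 and 6.5e-09). Dnajb9, a J-domain protein known as a target of XBP1, went the other way. It stood at 29.9 and 29.5 CPM at 0h, 27.9 and 28.7 (6h), 33.9 and 34.8 (12h) and 33.5 and 35.2 (24h). The 6h libraries were below and the 12h and 24h libraries above those at 0h, though by a few CPM. Dnajb9 rose by 0.21 ± 0.07 at 12h and by 0.21 ± 0.07 at 24h (adjusted p = 0.011 and 0.0092). The call at 24h was lost in DESeq2, in a correction for GC and length that also centres the mean gene, and without 0h replicate 2 or 24h replicate 2 (adjusted p up to 0.29). The call at 12h was lost in the same 2 fits and without either 0h library or without 12h replicate 2 (adjusted p up to 0.15).

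**Figure D4:**
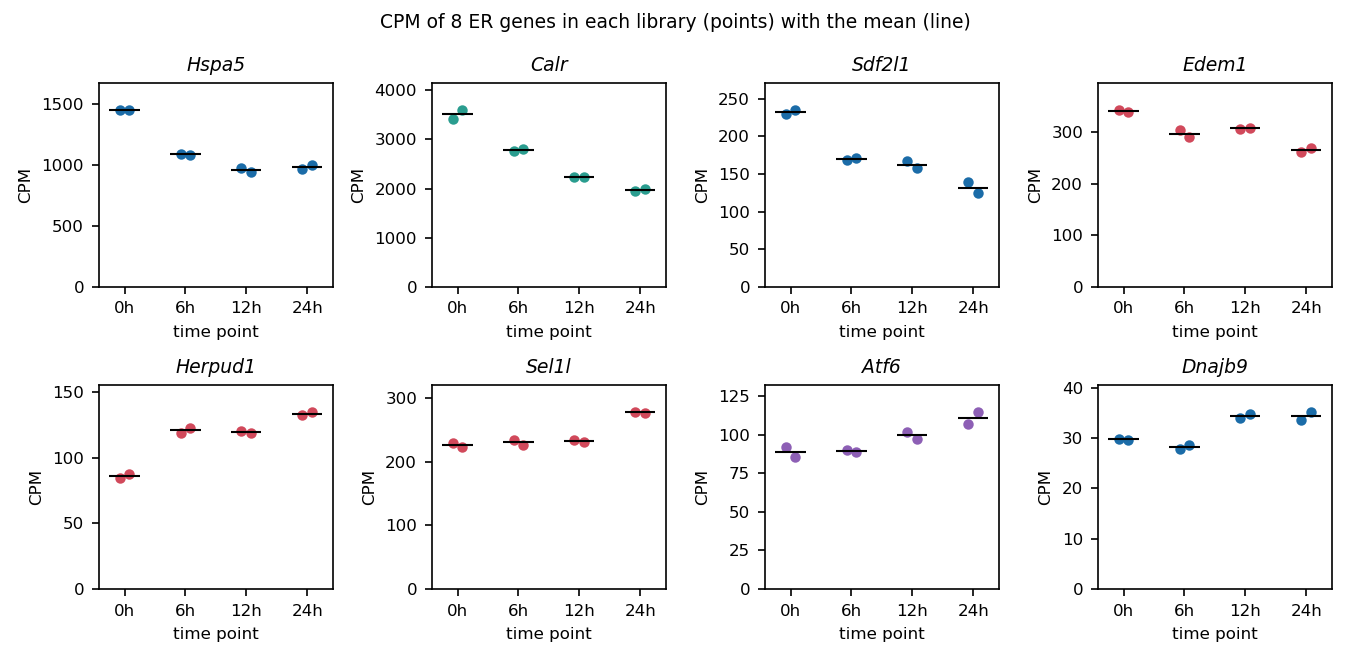
CPM of 8 ER genes in each library (points, y axes from 0) at the 4 time points, with a line at the mean of the 2 libraries. Hspa5, Calr, Sdf2l1 and Edem1 are lower at 24h than at 0h in both libraries, and Herpud1, Sel1l, Atf6 and Dnajb9 higher.

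All 6 lectin chaperones and disulfide isomerases fell at each of the 3 times. Over all genes, 8.58% were called lower at 6h, 21.6% at 12h and 24.8% at 24h. Calr encodes calreticulin, a calcium-binding lectin chaperone of the lumen, and was the most abundant member per length, at 1220 ± 44.8 RPKM at 0h (CPM per kilobase of exon; SD, n = 2), ahead of P4hb at 589 ± 16.1 and Hspa5 at 343 ± 0.942. Calr (chromosome 8, 84841850 to 84846934) stood at 3423 and 3606 CPM at 0h, 2754 and 2810.2 (6h), 2239.8 and 2229 (12h) and 1950.4 and 1984 (24h), and no 2 groups overlapped. It fell by 0.34 ± 0.04 at 6h, 0.65 ± 0.04 at 12h and 0.84 ± 0.04 at 24h (adjusted p = 4.8e-08, 8.3e-16 and 3.3e-19). Canx, its membrane-bound relative calnexin, changed less, from 912 and 894 CPM to 724 and 757, a fall of 0.29 ± 0.04 (adjusted p = 2.4e-07). Calr at 24h was still 683 ± 8.24 RPKM, above every other member at that time, and Canx 158 ± 4.99.

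Pdia6, an isomerase that also binds BiP, had 589.8 and 590.2 CPM at 0h, 485 and 477 (6h), 426 and 434 (12h) and 405 and 393 (24h), and fell by 0.56 ± 0.04 at 24h (adjusted p = 1.7e-14). Its values were lower at each later time in both libraries. Pdia3, the isomerase partner of the lectin chaperones, fell by 0.34 ± 0.04, from 839.8 and 851 CPM to 651 and 685 (adjusted p = 1.4e-08). P4hb, the classical disulfide isomerase, fell by 0.31 ± 0.04, from 1653 and 1718 CPM to 1344 and 1383 (adjusted p = 1e-07). Pdia4 had the smallest fall of the class at 24h, 0.23 ± 0.04, from 262 and 261 CPM to 220.2 and 226 (adjusted p = 9.5e-06). At 6h the calls of Canx and Pdia3 were lost under a correction for GC and length (adjusted p = 0.22 and 0.20) and without 1 of the 0h libraries, replicate 1 for Canx and replicate 2 for Pdia3. At 12h the call of Pdia4 was lost under that correction (adjusted p = 0.24).

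Of the stress sensor messages, Xbp1 fell slightly at 12h, Ern1 passed the test at no time and Atf6 rose at 24h. Xbp1, the transcription factor activated by splicing, stood at 350.5 and 351 CPM at 0h, 331 and 345 (6h), 309 and 315 (12h) and 332 and 324 (24h). It fell by 0.17 ± 0.04 at 12h (adjusted p = 0.0009), and this call held under every alternative. At 24h the fall of 0.10 ± 0.04 just passed the test (adjusted p = 0.045) and was lost under 10 of 17 alternatives, including every fit that left out a library of 0h, 12h or 24h (adjusted p up to 0.51). Gene-level counts do not separate spliced from unspliced Xbp1, so IRE1 activity was not measured. Atf6, which encodes a membrane-bound transcription factor released by cleavage, had 92.4 and 85.8 CPM at 0h, 89.9 and 88.6 (6h), 102 and 97.4 (12h) and 107 and 115 (24h). Its 6h values lay within the 0h range and its 24h values above all others. Atf6 rose by 0.32 ± 0.05 at 24h (adjusted p = 1.8e-06), and the call held under every alternative. Its smaller rise at 12h, 0.16 ± 0.05 (adjusted p = 0.0086), was lost without 0h replicate 2 or 12h replicate 1 and under the centred GC correction (adjusted p up to 0.47). Ern1, which encodes IRE1, ranged from 127 to 143 CPM over the 8 libraries and passed the test at no time (log2 fold change 0.09 ± 0.05 at 24h, adjusted p = 0.11). Under the GC correction that centres the mean gene it was called lower at 12h and 24h.

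Degradation genes went in different directions. Herpud1, a membrane protein that assembles the degradation complex, was the one member called higher at all 3 times (chromosome 8, 94386438 to 94395377). It stood at 84.5 and 87.4 CPM at 0h, 119 and 122 (6h), 120.0 and 119 (12h) and 132 and 135 (24h). Every later library was above both at 0h, 6h and 12h overlapped, and 24h was highest. Herpud1 rose by 0.49 ± 0.05 at 6h, 0.47 ± 0.05 at 12h and 0.64 ± 0.05 at 24h (adjusted p = 2.2e-10, 1.7e-10 and 3.5e-14), and these calls held under every alternative. Sel1l, the adaptor of the ubiquitin ligase HRD1, had 229 and 224 CPM at 0h, 235 and 226 (6h), 234 and 231 (12h) and 278 and 277 (24h). The 24h values stood above all others. It rose by 0.29 ± 0.04 at 24h (adjusted p = 1.7e-07), with 0.02 ± 0.04 at 6h and 0.04 ± 0.04 at 12h not called, the latter turning to a called fall under the centred GC correction.

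Edem1, which extracts misfolded glycoproteins from the folding cycle, fell. Its CPM was 344 and 339 at 0h, 304 and 290.1 (6h), 307 and 309 (12h) and 263 and 269.9 (24h), with all later libraries below 0h and 24h lowest. Its call at 12h was lost without TMM and under a correction for GC and length (adjusted p up to 0.24). The fall was 0.36 ± 0.04 at 24h (adjusted p = 2.6e-09). Syvn1, which encodes HRD1 itself, ranged from 56.5 to 64.5 CPM. It was called at 12h alone (fell by 0.14 ± 0.05, adjusted p = 0.044), a call lost under 9 of 17 alternatives, including without each library of 0h or 12h (adjusted p up to 0.34). The derlins, membrane proteins of the export channel, differed among themselves. Derl1 was called against 0h at no time, but the F test over the whole course called it (adjusted p = 0.024). It had 233 and 243 CPM at 0h, 221 and 230 (6h), 246 and 239 (12h) and 248 and 249.5 (24h). Derl2 fell by 0.26 ± 0.06 at 24h, from 67.2 and 64.8 CPM to 53.4 and 56.7 (adjusted p = 0.00035), and its neighbour Mis12 on the opposite strand overlaps 2.87% of its exons. The 12h call of Derl2 was lost under a correction for GC and length and without 12h replicate 2 (adjusted p up to 0.080). Derl3 was hardly detected: 4 and 12 counts at 0h, 7 and 11 (6h), 19 and 26 (12h) and 14 and 10 (24h). It rose at 12h (log2 fold change 1.29 ± 0.46, adjusted p = 0.023), a call lost in DESeq2, under the centred GC correction and without 0h replicate 1 or 12h replicate 2 (adjusted p up to 0.30).

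All 6 translocon genes fell at each time, beside 8.58% of all genes at 6h, 21.6% at 12h and 24.8% at 24h. Sec61b, the small subunit of the channel, had 268 and 259 CPM at 0h, 217 and 225 (6h), 211 and 217 (12h) and 202 and 165 (24h), and fell by 0.52 ± 0.05 at 24h (adjusted p = 3e-10). All later libraries lay below 0h, but the 24h replicates differed more from each other than at any other time. Sec61a1, the pore itself, fell by 0.32 ± 0.04, from 377 and 364 CPM to 304 and 290.0 (adjusted p = 5.1e-08), although an opposite-strand gene overlaps 8.16% of its exons. The genes Ssr1 to Ssr4 encode the translocon-associated protein complex, which helps some signal sequences to insert. Of these Ssr2 fell most, by 0.57 ± 0.04 at 24h (adjusted p = 9.5e-14), with 347 and 357 CPM at 0h, 276 and 299 (6h), 273 and 265 (12h) and 241 and 233 (24h). Its groups at 0h and later did not overlap, but an opposite-strand gene covers 12.8% of its exons, and 366 bases match Rtraf at 95% identity or more, a gene with up to 3097 counts in a library, so part of its counting is uncertain. Ssr1 fell by 0.35 ± 0.04, Ssr3 by 0.24 ± 0.04 and Ssr4 by 0.23 ± 0.05 at 24h. The 6h calls of Sec61a1, Sec61b, Ssr1 and Ssr4 were each lost under at least 1 alternative; those of Ssr2 and Ssr3 were not. Without 0h replicate 1 the 6h calls of Sec61a1, Ssr1 and Ssr4 were lost, without 0h replicate 2 those of Sec61a1 and Ssr1, without 6h replicate 1 those of Sec61a1 and Ssr4, and without 6h replicate 2 that of Ssr1. At 12h the call of Ssr3 was lost under a correction for GC and length (adjusted p = 0.31) and that of Ssr4 in DESeq2, without TMM and without 12h replicate 1 (adjusted p up to 0.11).

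The COPII coat carries cargo out of the ER. Sec24d, a cargo adaptor of the inner coat, had 133 and 133 CPM at 0h, 106 and 110.0 (6h), 105 and 100.5 (12h) and 90.1 and 91.8 (24h), and fell by 0.55 ± 0.05 at 24h (adjusted p = 1.6e-12). Sec23b, its partner in the inner coat, had 148 and 149 CPM at 0h and 123 and 126 at 24h and fell by 0.25 ± 0.04 (adjusted p = 7e-06). For both genes the libraries of 6h, 12h and 24h all lay below 0h, and Sec23b was not called at 6h (adjusted p = 0.098). The 12h call of Sec23b was lost under a correction for GC and length (adjusted p = 0.090).

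The steps after 6h were smaller. From 6h to 12h 10 members fell and 3 rose, beside 20.7% of all genes called, 9.78% lower and 10.9% higher, with a median of -0.09. A correction for GC and length turned this to 7 fallen and 6 risen. Calr fell by 0.32 ± 0.04 in that step (adjusted p = 3.9e-07) and Hspa5 by 0.18 ± 0.04 (adjusted p = 0.0012). The call of Hspa5 was lost without 12h replicate 2 (adjusted p = 0.056), while that of Calr held under every alternative. From 12h to 24h 8 members fell and 3 rose, beside 6.46% of all genes called, 3.04% lower and 3.41% higher, with a median of -0.06. Both later libraries lay below both earlier ones for 19 members from 6h to 12h and 18 from 12h to 24h, beside 28.8% and 23.3% of all genes, and above for 7 and 6, beside 29.5% and 25.9%. Sdf2l1 fell by 0.30 ± 0.05 (adjusted p = 2.5e-05), Edem1 by 0.21 ± 0.04 (adjusted p = 0.00065), and Sel1l rose by 0.26 ± 0.04 (adjusted p = 3.3e-05). These were the 3 calls of the late step that held under every alternative. Hspa5 was not called between 12h and 24h (log2 fold change 0.04 ± 0.04, adjusted p = 0.62). Counts of these late steps rested on single libraries: from 6h to 12h, 3 members fell without 12h replicate 2 and 4 without 12h replicate 1, and from 12h to 24h, 2 fell without 12h replicate 1, 3 without 24h replicate 2 and 5 without 12h replicate 2.

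Other genes of the secretory pathway, and the PERK and ATF4 arm, were read from lists that hold none of the 33. Of 99 tested, 54 were lower and 18 higher at 24h, beside 24.8% lower and 26.1% higher over all genes. The 18 include all 7 genes of the PERK and ATF4 arm. Among 20 other folding and oxidation genes, 7 were lower at 6h and 9 at 12h, beside 8.58% and 21.6% over all genes. At 24h 14 of them fell and none rose (edgeR's quasi-likelihood test, median -0.20). Examples are Fkbp11, a prolyl isomerase (log2 fold change -0.78 ± 0.07, SE), Erp29 (-0.40 ± 0.04) and the cyclophilin Ppib (-0.40 ± 0.05). Of 11 subunits of the oligosaccharyltransferase, which attaches N-glycans, 7 fell and none rose, among them Dad1 (-0.46 ± 0.05) and Ostc (-0.31 ± 0.04). The other translocon, signal recognition particle and signal peptidase genes gave 14 falls and 1 rise of 18, among them the receptor subunit Srpr (-0.43 ± 0.04) and the peptidase subunit Sec11a (-0.48 ± 0.05). In these 3 lists the median at 24h lay between -0.20 and -0.29, beside 0.02 over all genes.

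Of 21 other degradation genes, 13 fell and 3 rose at 24h, with falls of Vcp, the ATPase that pulls substrates out (-0.46 ± 0.04), and Selenos (-0.55 ± 0.05), and a rise of the mannosidase gene Man1b1 (0.32 ± 0.05). Of 12 other COPII genes, 4 fell and 3 rose (Sec13 -0.38 ± 0.04, Sec24b 0.22 ± 0.05), near the shares of 24.8% lower and 26.1% higher over all genes. Among 10 other sensors and regulators, 4 rose and 2 fell, beside the same shares, with Creb3 (0.66 ± 0.11), Creb3l2 (0.40 ± 0.07) and Eif2ak3, which encodes PERK (0.18 ± 0.06), among the rises. The PERK and ATF4 arm differed in direction from the chaperones: all 7 of its genes rose at 24h and 6 of 7 at 6h. Over all genes, 26.1% were higher at 24h and 9.74% at 6h. The median of the arm was 1.96 at 24h. Trib3, an ATF4 target and feedback inhibitor, stood at 9.04 and 9.48 CPM at 0h and 89.8 and 86.1 at 24h (3.25 ± 0.07), and Ppp1r15a, a phosphatase subunit that reverses PERK signalling, at 7.89 and 7.78 CPM and 30.3 and 30.8 CPM (1.96 ± 0.10). In both the 24h libraries were far above those at 0h. Eif2 kinases other than PERK also act through ATF4, and counts do not show which was active.

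**Figure D5:**
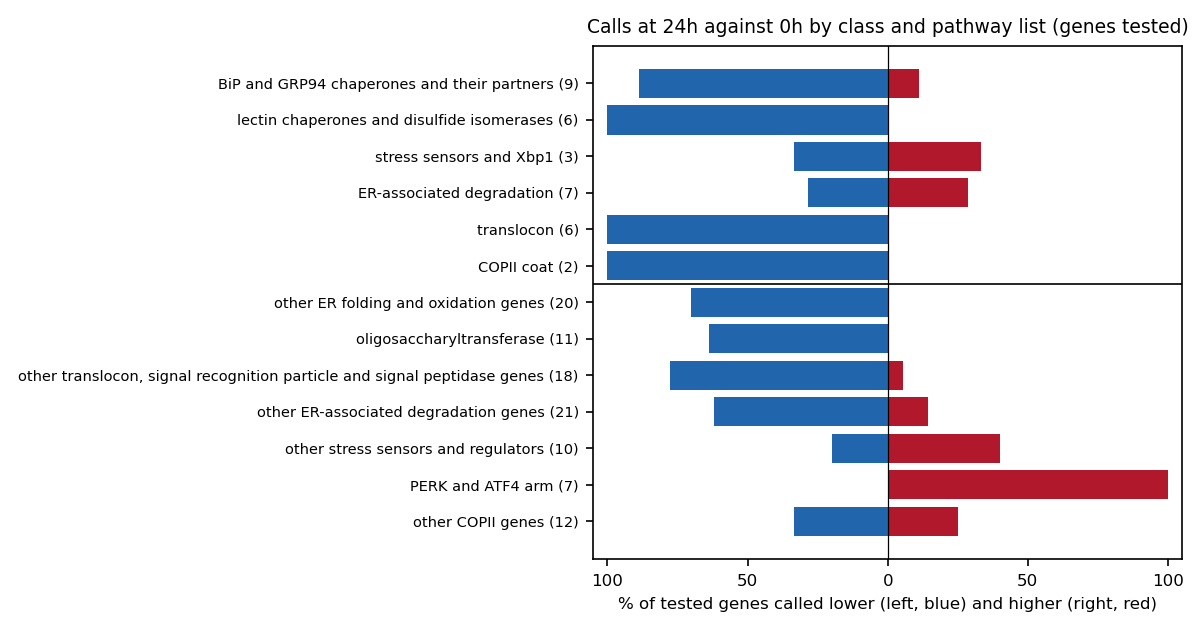
Share of the tested genes of each class (upper 6 bars) and of each other pathway list (lower 7 bars) called lower (left, blue) or higher (right, red) at 24h against 0h, with the number of tested genes in brackets. The translocon, COPII, lectin chaperone and isomerase bars reach 100% on the left, and the bar of the PERK and ATF4 arm reaches 100% on the right.

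Secretory cells of other types are rich in these genes, so their markers were read in the same libraries. For plasma cells the summed level of the 8 markers was 20.3 to 21.7 CPM at 0h and 14.3 to 15.6 at 24h, nearly all from Ighm and Sdc1, while Jchain, Mzb1, Igkc, Tnfrsf17 and Prdm1 did not exceed 0.143 CPM in any library. T cell genes came to at most 0.184 CPM in any library. Marker sums that moved with time included those of mast cells and basophils (51.6 to 53.9 CPM at 0h and 30.6 to 31.8 at 24h, with Fcer1a and Prss34 at 0), macrophages (65.4 to 70.6 and 40.7 to 44.2, with C1qa at 0), megakaryocytes (13.3 to 13.4 and 7.94 to 8.88), stroma and endothelium (183 to 187 and 139 to 145) and mature neutrophils (72.6 to 78.4 and 107 to 108). Pecam1 alone gave 182 and 186 CPM of the stroma and endothelium sum at 0h and 139 and 144 at 24h. Col1a1, Cxcl12, Lepr and Cdh5 did not exceed 0.459 CPM in any library. In the macrophage sum Adgre1 gave 64.0 and 69.0 CPM at 0h and 42.7 and 39.0 at 24h. C1qb went the other way, from 0 in both 0h libraries to 0.378 and 0.525 CPM at 24h. Of the neutrophil markers, Ltf, Camp, Ngp and S100a8 were higher at 24h than at 0h in both libraries. Mmp8 was lower, with 1.91 and 2.85 CPM at 0h and 1.59 and 1.41 at 24h. The megakaryocyte markers Pf4 and Gp9 did not exceed 0.236 CPM in any library. The part of these marker sums in the ER results was not tested. The share of fragments assigned to no gene also moved with time, from 5.25% and 5.70% at 0h to 9.04% and 9.27% at 24h, and its part was not tested either.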

How the data were processed

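RNA-seq of 8 libraries at 4 time points was used as 1 table each of unnormalized counts by Ensembl gene, as the authors deposited them. Extraction used an RNeasy kit and library preparation a TruSeq kit, per the labels' protocols. Per the submitters' processing notes, STAR, SAMtools 1.3 and HTSeq 2.0.3 were used with build mm10. For STAR's version, the gene annotation and the use of strand in counting, the answer was not given in the sources used here. Without the strand setting, reads of overlapping genes on opposite strands cannot be told apart. The 5 summary entries that name no gene were left out: fragments without a feature were 5.25% to 9.27% of a library, ambiguous ones 5.00% to 5.50%, and the other 3 held 0. Of 47069 gene entries 46574 had a symbol in GENCODE M21, and the 495 without one held at most 0.0254% of a library.

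Tests used edgeR 4.0.16 in R 4.3.3: genes kept by filterByExpr (14263), TMM scaling, 1 quasi-likelihood fit of all 8 libraries with a mean per time point (4 residual degrees of freedom, biological coefficient of variation 3.10%), two-sided, with Benjamini-Hochberg adjustment over all genes and calls at an adjusted p under 0.05. Each gene's spread was drawn towards that of the other genes with 32.1 prior degrees of freedom. The SE is the absolute log2 fold change over the square root of F. CPM are TMM-scaled, and RPKM divide CPM by the union of exons in kilobases. The pipeline was tested on simulated data.

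The members and lists were chosen with earlier results of these data known. The genes named are all 33 members, Klf4, and up to 4 genes per other list with the smallest adjusted p over the time course. Marker genes are named in part, mainly where they were at 0 or made up most of a sum. Atf4 and other listed genes are counted only. The result of 1 marker list is not reported here. Hm13 was the 1 gene of the 103 in these lists without a match, and 99 passed the filter. Promoters are from RefSeq (GRCm38.p6). Alternatives were DESeq2 1.42.0, DESeq2 size factors, no TMM, no filter or a mean log2 CPM of at least 1, the replicate number as a block, the 4 libraries of a comparison alone, 2 corrections for GC and length, and each library left out in turn, where the library left alone was assumed to vary like the others.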

Additional observations from a re-analysis of the deposited data

How the results depend on the processing

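With 2 libraries per group, a single library can decide a small change, and the counts of members at 6h, 12h and 24h against 0h kept their main direction under all alternatives run, as did the median of the 33 in all 5 comparisons. Over all genes, calls at 6h numbered 2613, against 1668 in DESeq2 and 4554 with the GC and length correction that centres the mean gene, from 12h against 6h 2946 against 1632 in DESeq2, and from 24h against 12h 921 against 445. Members called higher at 12h were 4, but 2 in DESeq2 and 1 with the centred correction. For 12h against 6h they were 3, but 1 in DESeq2 and 6 with the correction that keeps each library's level, and the 10 called lower became 6 without TMM and 21 with the centred correction. For 24h against 12h the 3 higher became 1 in DESeq2 and 1 without a filter. Under the centred correction Ern1 had -0.14 at 12h and -0.13 at 24h and Sel1l -0.10 at 12h. The cause was not tested.

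Leaving out each library in turn gave 1319 to 2715 calls over all genes at 6h, 1293 to 3061 from 6h to 12h and 373 to 1256 from 12h to 24h. Members called higher then numbered 1 to 2 at 6h, 2 to 4 at 12h, 0 to 3 from 6h to 12h and 1 to 3 from 12h to 24h, and members called lower 3 to 11 and 2 to 9 in the last 2 steps. Over all genes the lowest counts came without 0h replicate 2 at 6h, without 12h replicate 2 from 6h to 12h and without 12h replicate 1 from 12h to 24h. The degradation sum at 6h had log2 ratios of -0.047 to -0.039.

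Without TMM, where the median log2 fold change of all genes was 0.03 at 6h, 0.07 at 12h and 0.08 at 24h, the log2 ratios of the summed CPM to 0h at these times were -0.21, -0.30 and -0.37 for all 33, -0.32, -0.42 and -0.47 for BiP and partners, -0.22, -0.36 and -0.48 for lectin chaperones and isomerases, -0.16, -0.17 and -0.29 for the translocon and -0.16, -0.22 and -0.32 for COPII. They were 0.022, 0.0073 and 0.083 for the sensors, which reversed the 12h ratio, and -0.0066, 0.060 and 0.092 for degradation.

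With the replicate number as a block, 22 members were lower and 1 higher at 6h, 25 lower and 4 higher at 12h, and 24 lower and 4 higher at 24h. Over all genes 2495, 6116 and 7160 were called. Differences between replicates 2 and 1 correlated by -0.02 to 0.02 between times, and no pairing was assumed. These correlations hold counting noise and cannot show whether samples of the same number share a mouse or a batch.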
